A study of Mus musculus with 18 samples.

Results

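The genes described here are 10 core targets of the transcription factor p53: *Cdkn1a*, *Ccng1*, *Mdm2*, *Phlda3*, *Sesn2*, *Bbc3*, *Bax*, *Trp53inp1*, *Eda2r* and *Zmat3*. They were named as well-known p53 targets and were selected partly on their higher counts in the homozygous *Cryaa*-R49C lens, so that their level in those libraries is what chose them and is described without a test. They are 10 of the 40800 genes in the count table. All 10 are among the 13938 genes that passed the filter on low counts, and 9 pass it without the homozygous *Cryaa*-R49C libraries, the exception being *Eda2r*. RNA came from whole lenses of C57BL/6J mice in 6 groups of 3 libraries. Lenses of 2-day-old mice were wild-type (WT), heterozygous (het) or homozygous (homo) for the *Cryaa*-R49C knock-in, a change in the αA-crystallin gene. Lenses of 14-day-old mice were WT, het or homo for the *Cryab*-R120G knock-in, a change in the αB-crystallin gene. Both changes are known from human hereditary cataract. Several lenses were combined for each library. Line and age differ together, so they cannot be told apart, and knock-in alleles act in every cell that uses the gene. For the 6 *Cryab* mutant libraries the genotype label names the *Cryaa*-R49C line while the titles name *Cryab*-R120G, and the titles were followed.

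In a resting cell p53 is made and destroyed continuously, mainly through the ubiquitin ligase Mdm2. Damage to DNA, ribosomal stress and other insults stabilize the protein, which then binds paired 10-base sites near its target genes and raises their transcription. The products stop the cell cycle, repair DNA, limit growth signals or start apoptosis, and Mdm2, itself a target, closes a feedback loop. p53 is regulated largely at the protein level, so that its targets are commonly read as a sign of its activity. In the lens, epithelial cells at the front divide and then differentiate into fibre cells, which leave the cell cycle and lose their nuclei and organelles.

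The sequence that p53 recognizes could be read in the start-site regions of several of these genes, and the stretches that hold it are shown so that the letters can be seen beside the levels of these genes. RefSeq promoter windows (GRCm38.p6, 250 bases before to 50 bases after a start site) were given for 8 of the 10 genes, in 11 windows, and the consensus p53 decamer, which reads alike on both strands, was searched in each. It occurred in 4 of the 11 windows, each of a different gene, and in 8.36% of all 32851 windows. A tandem pair of decamers with no base between them and at most 2 mismatches in the 20 bases occurred in 2 windows, those of *Cdkn1a* and *Ccng1*, each with 1 mismatch, and in 0.326% of all windows. Capitals mark the decamer or the pair, and each stretch is written 5′ to 3′ on the strand of the gene.
*Cdkn1a*, chr17:29090886-29090967, plus strand: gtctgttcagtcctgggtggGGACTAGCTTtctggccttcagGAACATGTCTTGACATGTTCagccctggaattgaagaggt
*Ccng1*, chr11:40755442-40755501, minus strand: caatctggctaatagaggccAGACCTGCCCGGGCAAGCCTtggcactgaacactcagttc
*Mdm2*, chr10:117710915-117710964, minus strand: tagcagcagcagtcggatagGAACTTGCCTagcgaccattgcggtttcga
*Bax*, chr7:45467070-45467119, minus strand: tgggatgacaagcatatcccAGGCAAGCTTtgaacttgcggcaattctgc
All 4 stretches lie upstream of the annotated start of their gene. A match of letters is a description and not a shown binding site. The windows of *Phlda3*, *Sesn2*, *Bbc3* and *Eda2r* held no exact decamer, which says nothing of other places where p53 could bind.

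Library totals lay between 14272174 and 29639719 counts. Levels are given as CPM, the field's unit of counts relative to library size, after scaling by the trimmed mean of M values (TMM). Fold changes are log2 values from 1 edgeR model over the 18 libraries. Their standard error (SE) was derived as the absolute log2 fold change over the square root of the F statistic of edgeR's quasi-likelihood test. A single transcript, Gm42418, took from 2.53% to 42.6% of a library's counts. Both ends lay in the *Cryaa*-R49C-homo group, with 2.53%, 24.5% and 42.6% in replicates 1, 2 and 3. The other libraries ran from 7.97% to 30.1%. Scaling by library size and not by TMM moved the median gene of the *Cryaa*-R49C-homo contrast from 0.00 to 0.41 on the log2 scale. The fibre markers *Mip*, *Bfsp1*, *Bfsp2*, *Gja3*, *Crygs*, *Cryba1*, *Crybb2*, *Dnase2b*, *Lgsn* and *Grifin* were all counted, while *Lim2* was at 0 in every library. The knock-in genes were read in all libraries: *Cryaa* stood at 101315, 103292 and 69970.4 CPM in the day 2 WT lenses and at 92956, 38261 and 31385 CPM in the *Cryaa*-R49C-homo lenses, and point mutations do not show in gene counts. Homo replicate 1 thus stood apart from replicates 2 and 3 of its group. *Cryab* WT replicate 1 also stood apart, in several of the stress-linked genes below.

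In the *Cryaa*-R49C-homo lens at day 2, each of the 10 genes had a mean above that of the WT lens, by 1.82-fold for *Zmat3* to 19.9-fold for *Phlda3* and more for *Eda2r*. The median of their log2 fold changes was 2.60, against 0.00 for all genes tested. For 9 of the 10 genes the 3 homo libraries lay above all 3 WT libraries, which held for 11.9% of all genes. Against the het lens, all 10 lay above, which held for 11.6% of all genes. Since the homo libraries chose the genes, nothing is read from these counts. In whole lenses, a smaller number of cells of a type and less RNA per cell cannot be told apart. Over the same libraries the summed CPM of the 11 lens fibre markers ran from 64011 to 94656 in WT and from 21595 to 70268 in homo, with 5 of the 10 testable ones lower in homo, led by *Lgsn* and *Bfsp1*. The 10 macrophage markers summed to 7.60 to 18.3 CPM in WT and 19.0 to 38.0 CPM in homo, with 2 higher (*C1qa* and *Aif1*), and the 10 vessel and mesenchyme markers to 39.0 to 66.1 CPM in WT and 41.5 to 166 CPM in homo, with 2 of 9 higher (*Cdh5* and *Rgs5*). Of the 5 lens epithelium markers 1 was lower in homo, *Gja1*, and their sum ran from 86.5 to 110.9 CPM in WT and 70.2 to 78.1 CPM in homo. Of the 8 pigment and ciliary markers 2 were lower in homo, *Pmel* (log2 -2.02, adjusted p = 0.00692) and *Mlana* (-2.17, adjusted p = 0.0329), and their sum ran from 18.6 to 36.0 CPM in WT and 9.73 to 15.2 CPM in homo. No retina or erythroid marker passed the threshold, with sums of 21.3 to 68.7 and 36.8 to 57.8 CPM in WT and 23.2 to 37.1 and 41.4 to 150 CPM in homo. The part of these cell types in the p53 target levels was not tested.

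**Figure D1:**
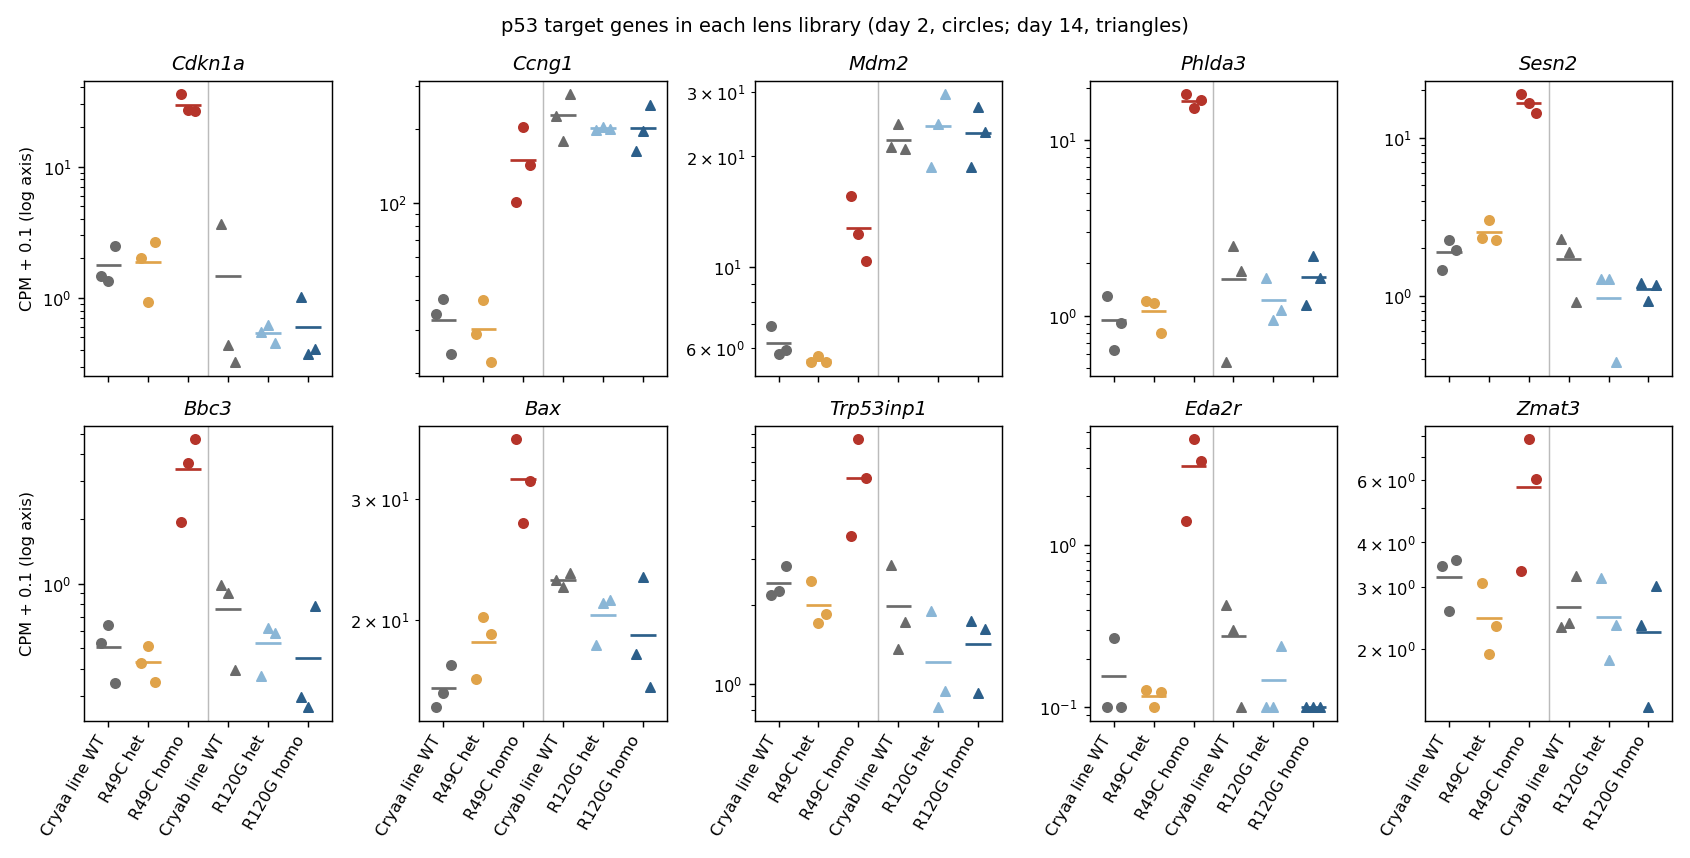
CPM after TMM scaling, plus 0.1, on a log axis, for each of the 10 p53 target genes in each of the 18 libraries, with a bar at the group mean. The *Cryaa*-R49C-homo libraries, in red, are the highest of the day 2 groups for every gene except *Zmat3*, where 1 homo library lies among the WT libraries.

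Among the genes of cell cycle arrest and feedback, *Cdkn1a* (ENSMUSG00000023067, chr17:29090976-29100727, plus strand) encodes p21, the inhibitor of cyclin-dependent kinases through which p53 halts the cell cycle. It stood at 1.36, 1.25 and 2.38 CPM in the day 2 WT libraries, at 1.91, 0.82 and 2.57 CPM in het and at 35.3, 26.9 and 26.2 CPM in *Cryaa*-R49C-homo. The homo libraries lay far above both other groups, which overlapped each other, and the fitted difference from WT was 4.14 ± 0.64 (log2, SE, n = 3 against 3), or 17.6-fold. Its promoter holds the tandem decamers printed above. In GENCODE vM21, the exons of *Cdkn1a* share bases with AC167363.2 on the other strand. Whether the annotation used for counting held AC167363.2 was not checked. Since the strand setting of the counting is not given in the sources used here, reads of the pair cannot be told apart. *Ccng1* (ENSMUSG00000020326, chr11:40748552-40755311, minus strand) encodes cyclin G1, a partner of protein phosphatase 2A that acts on Mdm2. Its 3 WT libraries held 35.0, 40.0 and 23.8 CPM, the het libraries 28.7, 39.7 and 22.0 CPM, and the homo libraries 101, 204 and 143 CPM. The homo libraries lay above all others, by 2.18 ± 0.28 on the log2 scale over WT.

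*Mdm2* (ENSMUSG00000020184, chr10:117688875-117710758, minus strand), the ligase that marks p53 for degradation, showed a small difference. WT libraries had 6.82, 5.67 and 5.85 CPM, het libraries 5.39, 5.63 and 5.41 CPM, and homo libraries 15.5, 12.2 and 10.3 CPM. The groups WT and homo did not overlap, and the log2 difference was 1.05 ± 0.22.

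Of the genes that restrain growth signals, *Phlda3* (ENSMUSG00000041801, chr1:135766119-135769136, plus strand) encodes a pleckstrin homology protein that competes with Akt for membrane lipids. It was at 1.19, 0.54 and 0.81 CPM in WT, at 1.12, 1.08 and 0.70 CPM in het and at 18.2, 15.2 and 16.9 CPM in homo. The homo libraries were closely alike and the log2 difference from WT was 4.32 ± 0.39. *Sesn2* (ENSMUSG00000028893, chr4:132492032-132510501, minus strand) encodes sestrin 2, a leucine-binding restraint on the growth kinase complex mTORC1, which is known as a target of both p53 and ATF4. WT libraries had 1.36, 2.16 and 1.86 CPM, het libraries 2.23, 2.91 and 2.17 CPM, and homo libraries 18.7, 16.4 and 14.2 CPM, a log2 difference between homo and WT of 3.18 ± 0.33.

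Of the genes of cell death, *Bbc3* (ENSMUSG00000002083, chr7:16308393-16318205, plus strand) encodes PUMA, a BH3-only protein that frees Bax and Bak from their inhibitors. It was counted at 0.43, 0.54 and 0.25 CPM in WT, 0.33, 0.41 and 0.25 CPM in het and 1.83, 3.55 and 4.60 CPM in homo. The homo libraries lay above all others, by 3.02 ± 0.49 on the log2 scale over WT. *Bax* (ENSMUSG00000003873, chr7:45461697-45466898, minus strand), the pore-forming effector of the mitochondrial outer membrane, was already present in WT at 14.8, 15.6 and 17.1 CPM. It had 16.3, 20.1 and 19.0 CPM in het and 36.6, 27.6 and 31.8 CPM in homo, a log2 difference from WT of 1.01 ± 0.19. In GENCODE vM21, exons of *Bax* overlap those of Gm45808 on the same strand. Whether the annotation used for counting held Gm45808 was not checked. If it did, reads in the shared bases were ambiguous and counted for neither gene. *Trp53inp1* (ENSMUSG00000028211, chr4:11156431-11174379, plus strand), a nuclear-body protein linked to p53 phosphorylation and autophagy, held 2.09, 2.16 and 2.73 CPM in WT, 2.37, 1.61 and 1.74 CPM in het and 3.57, 8.45 and 6.01 CPM in homo. Homo was higher by 1.36 ± 0.35 on the log2 scale, and its lowest library was less than 1 CPM above the highest WT library.

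*Eda2r* (ENSMUSG00000034457, chrX:97333840-97377216, minus strand) encodes the receptor of ectodysplasin A2, a member of the tumour necrosis factor receptor family. It was at or near 0 in the other groups. The counts were 0, 5 and 0 in the WT libraries, 1, 0 and 1 in the het libraries, and 60, 140 and 84 in the homo libraries, where its level was 1.32, 4.40 and 3.19 CPM. Against the het lens, taken at the floor of 3 counts a library, the homo mean was at least 35.5-fold higher. The fitted log2 difference from WT, 5.50 ± 0.87, rests on the 5 reads of a single WT library. *Zmat3* (ENSMUSG00000027663, chr3:32334792-32366014, minus strand), a zinc finger protein that binds RNA and alters splicing, had the smallest difference of the 10. It had 3.32, 2.47 and 3.47 CPM in WT, 2.97, 1.83 and 2.22 CPM in het and 3.22, 7.73 and 5.93 CPM in homo. Homo replicate 1 fell among the WT libraries, and the log2 difference was 0.86 ± 0.32.

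**Figure D2:**
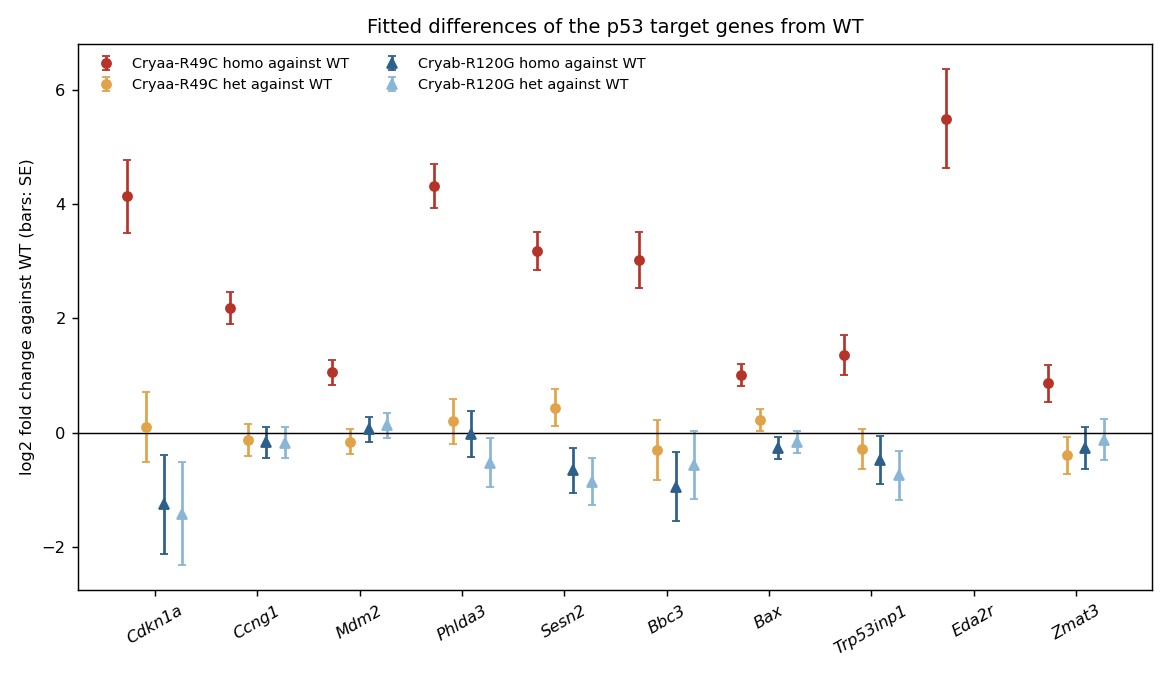
Fitted log2 fold changes against the WT lenses of the same line, with bars of 1 SE, for the 10 genes in the 4 mutant groups (n = 3 against 3). *Eda2r* is drawn only for *Cryaa*-R49C-homo, because the other groups hold at most 5 counts in any library. The *Cryaa*-R49C-homo values run from 0.86 to 5.50, and the others lie around or below 0.

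The 3 *Cryaa*-R49C-homo libraries did not rank alike over the genes. Replicate 1 was the highest of the 3 for *Cdkn1a*, *Phlda3*, *Mdm2*, *Sesn2* and *Bax*, and the lowest for *Ccng1*, *Bbc3*, *Trp53inp1*, *Eda2r* and *Zmat3*. For *Phlda3* the folds over the WT mean were 21.5, 17.98 and 19.99 in replicates 1, 2 and 3, and for *Ccng1* they were 3.06, 6.19 and 4.35. Replicate 1 also had the highest *Trp53*, at 23.8 CPM against 9.49 and 11.5 CPM in replicates 2 and 3, and the highest *Cryaa*. Without replicate 1 the fitted log2 difference was 3.95 for *Cdkn1a*, 2.39 for *Ccng1* and 1.15 for *Zmat3*. Over all single libraries left out, the median of the 10 fold changes ran from 2.37 to 2.81.

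**Figure D3:**
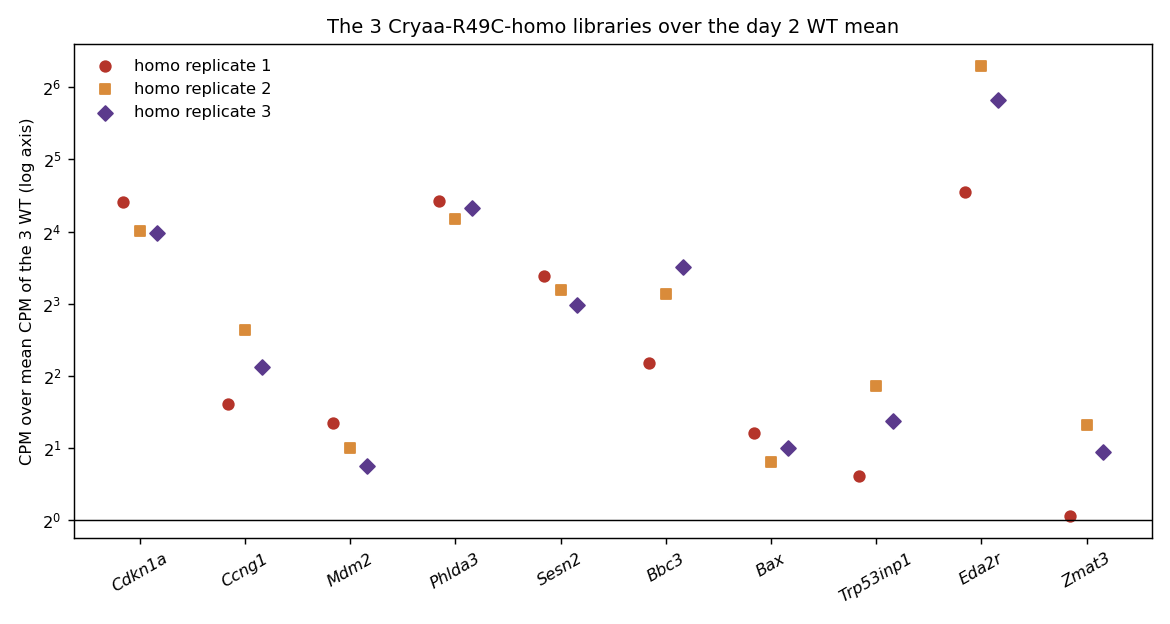
CPM of each of the 3 *Cryaa*-R49C-homo libraries divided by the mean CPM of the 3 day 2 WT libraries, on a log axis, for the 10 genes. Replicate 1 is the highest of the 3 for 5 genes and the lowest for the other 5.

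After the mean of each line was taken away, the 45 pairs of the 10 genes correlated over the 18 libraries with r from 0.324 to 0.93 and a median of 0.758. All pairs share the 3 *Cryaa*-R49C-homo libraries, and over the other 15 libraries r ran from -0.742 to 0.674 with a median of 0.067. By the same measure the genes outside the 10 whose pattern was most like their mean were *Myo5a* (r = 0.967), *Sqstm1* (r = 0.967), *Iars* (r = 0.966), *Ddit3* (r = 0.964) and *Gm14963* (r = 0.949), each over 18 libraries. The *Cryaa*-R49C-homo libraries, which chose the 10 genes, enter these values too, so a gene high in homo scores high. Their r over the other 15 libraries is not given here. *Sqstm1* encodes the autophagy receptor p62, *Iars* the cytosolic isoleucyl-tRNA synthetase and *Ddit3* the stress factor CHOP.

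The *Cryaa*-R49C-het lens asks whether a single mutant copy moves these genes. None of the 10 passed the threshold of an adjusted p of 0.05 in edgeR's quasi-likelihood test, where 0.00717% of all genes did, and none had an unadjusted p under 0.05. DESeq2 called none either. The WT libraries of this comparison were used in choosing the genes, which favours a higher value in het. Even so, 5 of the 9 fold changes were below 0 with *Eda2r* left out, as were 51.3% of all genes, and the median was -0.13. The groups did not overlap for 2 genes, *Sesn2* (higher in het) and *Mdm2* (lower in het), while 21.9% of all genes did not overlap in either direction. *Sesn2* differed by 0.43 ± 0.32 (log2, adjusted p = 0.836), *Bax* by 0.22 ± 0.19 (adjusted p = 0.841) and *Mdm2* by -0.16 ± 0.22 (adjusted p = 0.881). *Cdkn1a* and *Phlda3*, which stood 17.6-fold and 19.9-fold above WT in homo, differed in het by 0.09 ± 0.61 and 0.20 ± 0.39. With library size alone 3 of the 9 were below 0 and their median became 0.12, so that its sign depends on the scaling. The median of all genes moved in the same way, from -0.01 to 0.21, so nothing about the 9 is read from this turn.

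The rule that chose the genes did not use the *Cryab*-R120G lenses at day 14, although results of these lenses were known by then. None of the 10 passed the threshold in *Cryab*-R120G-homo (0.0502% of all genes did) or in *Cryab*-R120G-het (0.00717%), and none between homo and het (0.00%). *Eda2r* passed the filter only through the *Cryaa*-R49C-homo libraries and held at most 3 counts in a library here, so it is left out of what follows. Of the other 9 genes, in edgeR's test, 0 in homo, 1 in het (*Sesn2*) and 0 between homo and het had an unadjusted p under 0.05. DESeq2 called none of the 10 in these 3 comparisons. A block for the replicate number raised the genes called in homo from 7 to 18, none of them among the 10. The fold changes were below 0 for 8 of the 9 genes in homo and for 8 in het, beside 49.3% and 49.2% of all genes, and both comparisons share the same WT libraries. Their medians were -0.27 and -0.53. Scaled by library size alone, 4 of the 9 were below 0 in homo and 5 in het, beside 16.2% and 26.2% of all genes, and the medians were 0.10 and -0.32, so the sign in homo turned with the scaling. The homo libraries were not separate from WT for any of the 9 (4.51% of all genes were separate on the higher and 4.50% on the lower side), and in het only *Bax* was, on the lower side (10.1% of all genes).

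*Cdkn1a* shows how far a single library weighs in this line. It was at 3.52, 0.33 and 0.22 CPM in the day 14 WT libraries, at 0.45, 0.52 and 0.35 CPM in het and at 0.92, 0.28 and 0.31 CPM in homo. WT replicate 1, with 32 counts, stood above every other library of the line. The fitted log2 differences were -1.26 ± 0.87 in homo (adjusted p = 0.927) and -1.42 ± 0.90 in het, and without WT replicate 1 they became 0.81 and 0.65. That library also held 66 counts of *Gdf15* where the other WT libraries held 6 and 1. Without it 7 of the 9 genes were below 0 in homo and 7 in het, the medians were -0.26 and -0.20, and the gene with an unadjusted p under 0.05 in het was *Phlda3* and not *Sesn2*. *Sesn2* was at 2.203, 1.802 and 0.82 CPM in WT, at 1.17, 1.17 and 0.28 CPM in het and at 1.11, 0.83 and 1.07 CPM in homo, with overlapping groups and a log2 difference of -0.86 ± 0.41 in het (adjusted p = 1). *Mdm2* had 21.2, 24.4 and 20.9 CPM in WT and 18.6, 27.2 and 23.2 CPM in homo, a difference of 0.06 ± 0.21 (adjusted p = 0.994). *Ccng1* had 226, 180 and 278 CPM in WT and 162, 196 and 251 CPM in homo, a difference of -0.16 ± 0.27 (adjusted p = 0.977). *Eda2r* had 3, 3 and 0 counts in WT and none in homo, which is at the floor in both groups. The 8 pigment and ciliary markers summed to 6.61 to 8.31 CPM in WT, 18 to 32.4 CPM in homo and 19.5 to 60.1 CPM in het. None of the 8 passed the threshold in edgeR's quasi-likelihood test, with 6 in homo and 7 in het at an unadjusted p under 0.05, while DESeq2 called 2 higher in homo and 4 in het and the likelihood-ratio test 5 in each. The 10 vessel and mesenchyme markers summed to 12.0 to 15.0 CPM in WT, 17.4 to 22.5 CPM in homo and 14.4 to 28.0 CPM in het, the 10 macrophage markers to 0.73 to 2.53, 2.07 to 4.78 and 1.96 to 3.52 CPM, the 12 retina markers to 24.4 to 803, 209.7 to 1194 and 101 to 619 CPM and the 6 erythroid markers to 15.6 to 146, 49.2 to 178 and 134 to 450.1 CPM, in the same order. The pigment and ciliary sums did not overlap between WT and either mutant group. The vessel and mesenchyme sums did not overlap between WT and homo but did between WT and het. The retina, erythroid and macrophage sums overlapped between WT and both mutant groups. In homo and het the quasi-likelihood test and DESeq2 called none of the retina, erythroid, vessel and macrophage markers, DESeq2 giving no adjusted p for 1 retina marker in homo, while the likelihood-ratio test called higher 7 and 1 of 12 retina markers, 4 and 5 of 5 erythroid markers, 1 and 1 of 9 vessel and mesenchyme markers and 2 and 0 of 10 macrophage markers. At an unadjusted p under 0.05 in the quasi-likelihood test there were 1 and 0 retina, 0 and 5 erythroid, 3 and 4 vessel and mesenchyme and 2 and 0 macrophage markers in homo and het. Their part in the p53 target values was not tested.

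Between WT lenses of day 2 and day 14, 2 of the 10 genes passed the threshold, as did 23.2% of all genes. *Ccng1* was higher at day 14 by 2.79 ± 0.29 (log2, adjusted p = 7.82e-07) and *Mdm2* by 1.86 ± 0.22 (adjusted p = 3.58e-06), with no overlap between the groups. The day 2 WT libraries were used in choosing the genes, which favours a higher value at day 14, and line and age cannot be told apart here. *Bax* was higher by 0.52 ± 0.19 with an adjusted p of 0.0503, just past the threshold on the other side, and DESeq2 gave it 0.029. *Phlda3* differed by 0.92 ± 0.41 (adjusted p = 0.106), and without *Cryab* WT replicate 1 its adjusted p was 0.014. *Cdkn1a* differed by -0.48 ± 0.71 (adjusted p = 0.672), and without that library by -2.55 (adjusted p = 0.00401), so that 4 of the 10 genes were then called. The share of all genes called in that fit is not given here. Over all single libraries left out, 1782 to 4224 genes were called, so nothing is read from the count of 4. With library size alone *Ccng1* was still called higher while *Mdm2* was not and 5 of the 10 were called lower, as were 82.1% of all genes, when the median gene moved from -0.07 to -1.61. Those 5 were *Bax* (-1.06), *Cdkn1a* (-2.09), *Sesn2* (-1.72), *Trp53inp1* (-1.93) and *Zmat3* (-1.87), and *Phlda3* and *Bbc3* were at -0.61 and -0.77 without a call. The mean *Ccng1* level of the day 14 WT lens, 228 CPM, was above that of the *Cryaa*-R49C-homo lens at day 2, 149 CPM, and the same was so for *Mdm2* at 22.1 and 12.7 CPM. By library size alone this order turned for both genes, with 115 CPM at day 14 WT and 294 CPM in homo for *Ccng1* and 11.3 and 25.7 CPM for *Mdm2*. These libraries differ in age, line and genotype, and the values are set side by side without a test.

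**Figure D4:**
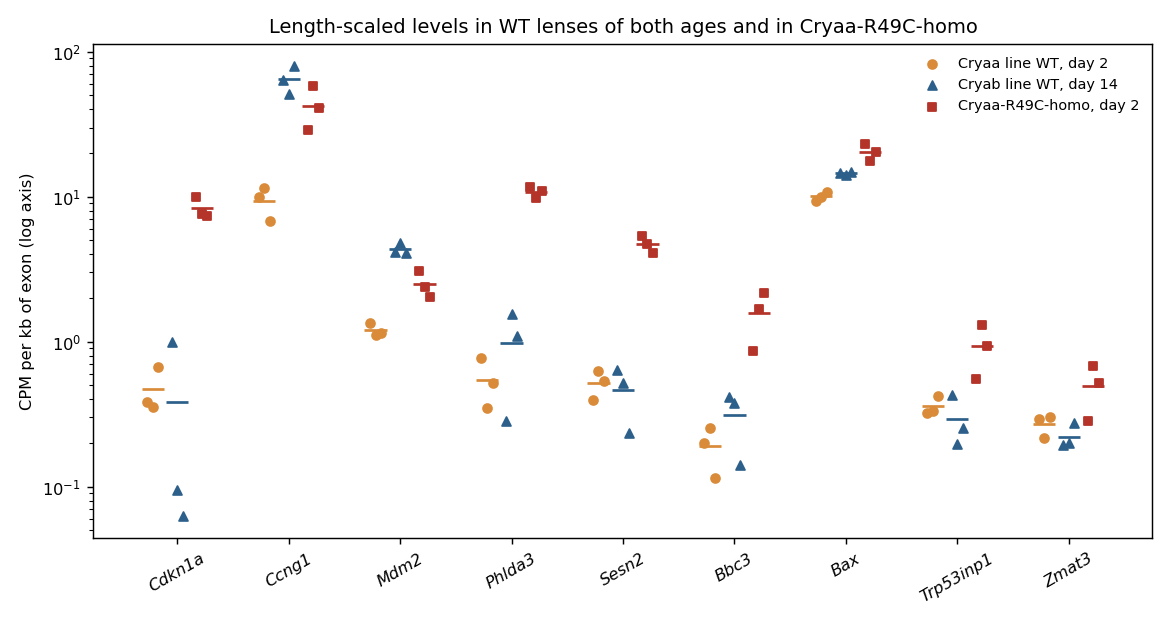
CPM per kb of exon on a log axis for 9 of the 10 genes (*Eda2r* is left out, as several libraries are at 0) in the day 2 WT, day 14 WT and day 2 *Cryaa*-R49C-homo lenses, with a point for each library and a line at the mean. With TMM scaling *Ccng1* and *Mdm2* are highest in day 14 WT and the other 7 genes in *Cryaa*-R49C-homo, while by library size alone all 9 are highest in *Cryaa*-R49C-homo.

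Per kb of exon, *Bax*, *Ccng1* and *Mdm2* held the first 3 places in every group except *Cryaa*-R49C-homo. In the day 2 WT lens *Bax* led with 10.04 ± 0.74 CPM per kb (SD, n = 3), next to *Ccng1* with 9.37 ± 2.36, and these neighbours did not differ beyond their spread. *Mdm2* followed at 1.20 ± 0.12, then *Phlda3*, *Sesn2* and *Cdkn1a* at 0.54 ± 0.21, 0.52 ± 0.12 and 0.47 ± 0.18, which did not differ beyond their spread either. *Eda2r* was last at 0.010 ± 0.017. In *Cryaa*-R49C-homo the order was *Ccng1* at 42.5 ± 14.7, *Bax* at 20.3 ± 2.85, *Phlda3* at 10.8 ± 0.95, *Cdkn1a* at 8.30 ± 1.42 and *Sesn2* at 4.72 ± 0.64, so that *Mdm2*, at 2.49 ± 0.52, had moved from the third to the sixth place.

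The gene of the factor itself, *Trp53*, did not pass the threshold in any comparison with WT. It was at 15.0, 12.3 and 16.9 CPM in day 2 WT and at 23.8, 9.49 and 11.5 CPM in *Cryaa*-R49C-homo, a log2 difference of 0.02 ± 0.27 (adjusted p = 0.971) whose sign turned when homo replicate 1 was left out (-0.49). Of 24 listed regulators of p53 (kinases, acetylases, ligases and binding proteins), 21 passed the filter, and 1 changed in *Cryaa*-R49C-homo. This was *Hipk2*, a kinase that phosphorylates p53, which fell by 1.0 ± 0.27 (adjusted p = 0.0206, from 31.1 ± 5.87 to 15.5 ± 1.97 CPM, SD, n = 3), beside 9.79% of all genes in either direction. The median of the 21 was -0.12. The call was lost with library size alone (adjusted p = 0.137) and without WT replicate 1, WT replicate 2 or homo replicate 2 (adjusted p = 0.0886, 0.0761 and 0.0614). *Mdm4*, the partner of Mdm2, was at 12.5, 16.1 and 14.0 CPM in WT and 9.21, 13.1 and 13.7 CPM in homo (-0.24 ± 0.23, adjusted p = 0.567). The genes of p63, p73 and Arf (*Trp63*, *Trp73* and *Cdkn2a*) did not pass the filter on low counts. In the other 3 comparisons with WT neither edgeR nor DESeq2 (with 1 adjusted p missing in *Cryab*-R120G-homo) called a regulator, and 1, 0 and 0 of the 21 had an unadjusted p under 0.05 in edgeR's test in *Cryaa*-R49C-het, *Cryab*-R120G-homo and *Cryab*-R120G-het.

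Another 57 p53 targets, listed by role with the 10 genes left out, were tested in the same way. Since the 10 were picked partly for being high, these are what was left. In *Cryaa*-R49C-homo, 50 of the 57 passed the filter, 9 rose (4.87% of all genes did) and 2 fell. Among the 9, *Gdf15* and *Trp53cor1* passed the filter only through the *Cryaa*-R49C-homo libraries, which favours a rise. Their median log2 fold change was 0.38, against 0.00 for all genes tested. By role, 3 of 10 arrest genes rose, 1 of 11 death genes, 2 of 8 repair genes and 2 of 9 metabolism genes, with 1 of these 9 falling, and of the 12 signalling genes 1 rose and 1 fell. None of the 50 was called in *Cryaa*-R49C-het or in either *Cryab*-R120G group in edgeR's test, where 2, 6 and 3 of them had an unadjusted p under 0.05 in *Cryaa*-R49C-het, *Cryab*-R120G-homo and *Cryab*-R120G-het, and DESeq2 called none of them either (1 had no adjusted p in *Cryab*-R120G-homo). With every gene of at least 1 count kept, 2 were called lower in *Cryab*-R120G-homo and 3 lower in *Cryab*-R120G-het.

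*Trp53cor1*, the long non-coding RNA known as lincRNA-p21, lies upstream of *Cdkn1a* on the other strand (chr17:29057430-29079179). It rose by 4.72 ± 0.53 (adjusted p = 2.84e-06), from 1, 5 and 8 counts in WT to 170, 180 and 116 in *Cryaa*-R49C-homo, while the het libraries had 6, 13 and 6. *Cdkn1a* and *Trp53cor1* lie 2.58 and 2.60 Mb from the edited *Cryaa* gene on chromosome 17. *Gadd45a*, which acts in arrest and DNA repair, rose by 2.30 ± 0.26 (adjusted p = 3.67e-06) from 3.98 ± 1.12 to 19.6 ± 4.24 CPM (SD, n = 3). *Plk3*, a polo-like kinase, rose by 2.34 ± 0.53 (adjusted p = 0.00607) from 0.48 to 2.49 CPM. *Gdf15*, a secreted stress cytokine of the transforming growth factor family, had the largest rise of the list, 5.01 ± 0.94 (adjusted p = 0.00333), from 5, 10 and 9 counts to 429, 272 and 280.

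In the other roles, *Rps27l*, a ribosomal protein paralog that p53 induces, rose by 1.62 ± 0.24 (adjusted p = 9.11e-05), from 21.4 ± 3.55 to 65.6 ± 23.7 CPM, and reads shared with *Rps27* copies could be lost from it. *Xpc*, a sensor of nucleotide excision repair, rose by 1.03 ± 0.29 (adjusted p = 0.0245). *Aen*, an apoptosis-enhancing nuclease, rose by 1.05 ± 0.29 (adjusted p = 0.0233), with 915 counts in homo replicate 1 beside 258 and 213 in replicates 2 and 3. *Ddit4*, an inhibitor of mTORC1, rose by 2.29 ± 0.31 (adjusted p = 2.84e-05) and *Ephx1*, a microsomal epoxide hydrolase, by 1.09 ± 0.28 (adjusted p = 0.013). *Sesn1* fell by 1.18 ± 0.27 (adjusted p = 0.00683) and *Hspa4l*, a heat shock protein of the Hsp110 family, by 0.58 ± 0.18 (adjusted p = 0.0468). The calls of *Sesn1* and *Hspa4l* were lost with library size alone (adjusted p = 0.152 and 0.703). The call of *Aen* was lost without homo replicate 1 or any 1 of the WT libraries (adjusted p from 0.0521 to 0.152, with a log2 difference of 0.46 without homo replicate 1), that of *Xpc* without WT replicate 1, WT replicate 2 or homo replicate 2 (0.0917 to 0.179), that of *Ephx1* without WT replicate 2 or 3 (0.0754 and 0.0657), and that of *Hspa4l* without any 1 of the WT libraries or homo replicate 2 or 3 (0.0605 to 0.225). Over the whole list, 6 rose and 1 fell without WT replicate 2, where 2.43% of all genes rose and 2.92% fell. Without homo replicate 1, 10 rose and 6 of the 51 then tested fell, where 9.19% of all genes rose and 12.3% fell.

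**Figure D5:**
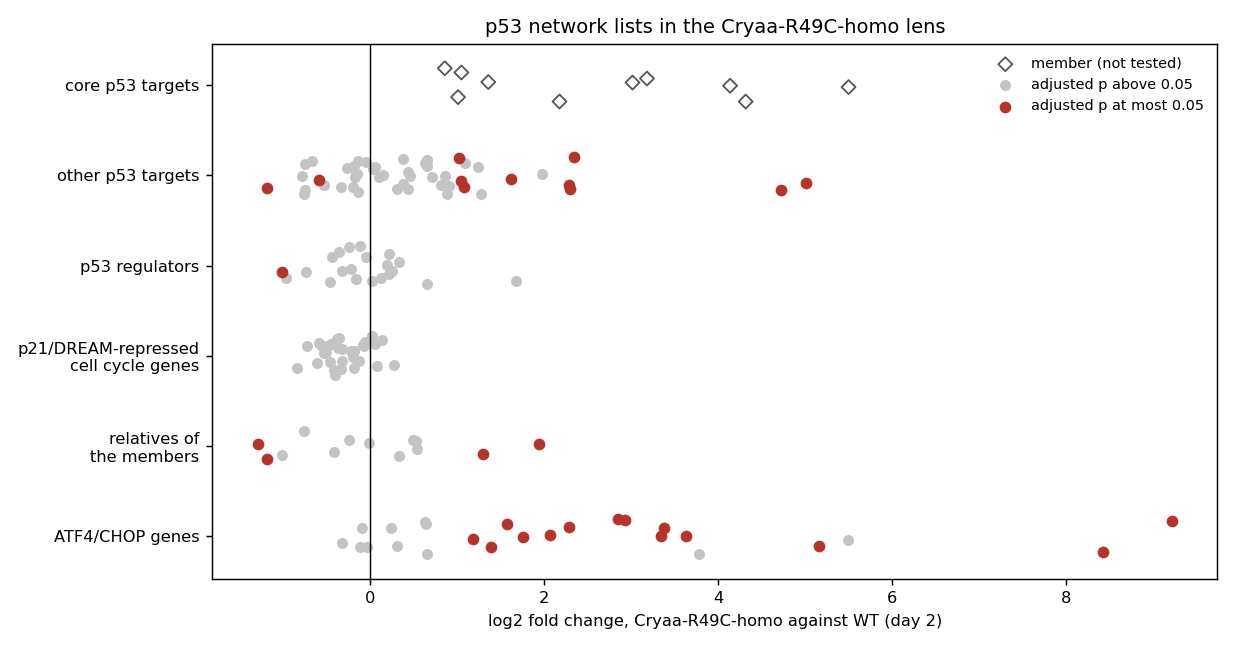
Log2 fold changes between *Cryaa*-R49C-homo and WT lenses at day 2, with a point for each gene that passed the filter, for the 10 core targets (open diamonds, not tested) and 5 further lists; red points have an adjusted p of at most 0.05 and grey points do not. Of the other p53 targets 9 lie to the right and 2 to the left among the red points, and the p21/DREAM list has none.

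The homo effect was also compared between the lines, as the effect in *Cryaa*-R49C at day 2 minus that in *Cryab*-R120G at day 14. It differed for 7 of the 50 other targets, and for 2.91% of all genes. The difference was above 0 for *Gdf15*, *Trp53cor1*, *Plk3*, *Ddit4*, *Gadd45a* and *Rps27l* and below 0 for *Sesn1*. The filter favours this for *Gdf15* and *Trp53cor1*, which passed it only through the *Cryaa*-R49C-homo libraries. For the 10 core targets this difference uses the libraries that chose them and was not tested.

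The 10 genes have relatives that share their family but not their place in the list, and the families were compared member by member. Of 15 relatives, 13 passed the filter, and in *Cryaa*-R49C-homo 2 rose and 2 fell, where 9.79% of all genes changed in either direction. Among the sestrins, *Sesn2* was 9.09-fold above WT, while *Sesn1* fell from 13.5 ± 2.41 to 5.89 ± 2.58 CPM and *Sesn3* from 13.1 ± 3.46 to 5.38 ± 0.15 CPM (log2 -1.28 ± 0.29, adjusted p = 0.00658). The adjusted p of *Sesn3* was 0.057 with library size alone. Among the pleckstrin homology genes, *Phlda1* rose by 1.30 ± 0.37 (adjusted p = 0.027), from 3.52 ± 0.88 to 8.67 ± 3.11 CPM, beside 19.9-fold for *Phlda3*, and *Phlda2* did not pass the filter. *Bak1*, the other pore-forming effector beside *Bax*, rose by 1.95 ± 0.54 (adjusted p = 0.0226), from 9, 12 and 16 counts to 15, 91 and 56, so that homo replicate 1 stayed at the WT level. *Ccng2*, the relative of *Ccng1*, was at 2.81 ± 1.02 CPM in WT and 2.11 ± 0.41 CPM in homo (-0.41 ± 0.31, adjusted p = 0.459). *Trp53inp2*, the relative of *Trp53inp1*, was at 2.27 ± 0.47 and 1.14 ± 0.20 CPM (-1.01 ± 0.39, adjusted p = 0.107). None of the 13 was called by edgeR or DESeq2 in the other 3 comparisons with WT, where 1 had an unadjusted p under 0.05, in *Cryaa*-R49C-het. The call of *Bak1* was lost without WT replicate 1 or 2 or homo replicate 2 or 3 (adjusted p from 0.0661 to 0.164), and that of *Phlda1* without WT replicate 2 or 3 or homo replicate 2 or 3 (0.076 to 0.116).

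p21 acts on the cell cycle through the DREAM complex, which represses genes of DNA replication and mitosis. None of 32 such genes was called in *Cryaa*-R49C-homo in edgeR's test, beside 9.79% of all genes. Of the 32, 1 had an unadjusted p under 0.05 and the lowest adjusted p was 0.195, and DESeq2 called none either. Their fold changes ran from -0.83 to 0.28 with a median of -0.33, 5 of the 32 being above 0. The median was 0.03 with library size alone, so its sign turned with the scaling. The median of all genes moved with it, from 0.00 to 0.41, and stayed above that of the list. Without homo replicate 1, 4 of the 32 were called lower, beside 12.3% of all genes.

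Genes of the ATF4 and CHOP stress pathway, which shares targets with p53, were listed for comparison. Of 25 listed, 14 rose and none fell in *Cryaa*-R49C-homo, where 4.87% of all genes rose, and the median log2 fold change was 1.75 against 0.00 for all genes tested. The steepest of the 14 were *Trib3* at 9.21 ± 0.66 (adjusted p = 3.17e-08), *Chac1* at 8.43 ± 0.86 (adjusted p = 1.98e-05), *Ddit3* at 5.17 ± 0.31 (adjusted p = 1.99e-10) and *Atf5* at 3.63 ± 0.52 (adjusted p = 0.000241). *Trib3* and *Stc2*, another of the 14, passed the filter only through the *Cryaa*-R49C-homo libraries, which favours a rise. *Ddit4* is the only gene that this list shares with the other p53 targets. In the other 3 comparisons with WT edgeR's test called none of the 25, and 0, 4 and 3 of them had an unadjusted p under 0.05 in *Cryaa*-R49C-het, *Cryab*-R120G-homo and *Cryab*-R120G-het. DESeq2, which gave no adjusted p for 1 of the 25, called *Chac1* alone, as lower in *Cryab*-R120G-het. All genes at an unadjusted p under 0.05 came to 5.09%, 6.10% and 3.82% in these 3 comparisons. *Chac1* had 71, 9 and 18 counts in the day 14 WT libraries and 1, 6 and 3 in het, and without *Cryab* WT replicate 1 its log2 difference in het moved from -3.61 to -1.95 in edgeR's test. Without that library 3 of the 25 in homo and 1 in het had an unadjusted p under 0.05, with *Atf3* and *Cebpb* no longer among them. *Gdf15* and *Ddit3* were high in the same homo libraries as the 10 genes, of which *Sesn2* is known as a target of both p53 and ATF4. Whether p53 or ATF4 acted on a gene that both are known to drive was not tested.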

How the data were processed

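Lens RNA of 18 libraries was read as single-end poly-A RNA-seq. The authors aligned the reads with STAR 2.0.4b to GRCm38 with Ensembl annotation and counted uniquely aligned, unambiguous reads per gene with featureCounts 1.4.5, and the deposited counts are not normalized. Repeated lines of a gene were reduced to 1, which left 40800 genes. The deposited CPM, length-scaled and log2 tables were made from these counts and left unused. Exon lengths, positions and overlaps came from GENCODE vM21 of the same assembly, and not from the annotation used for counting.

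Counts were fitted in edgeR 4.0.16 (R 4.3.3) with TMM scaling (factors 0.488 to 2.27), filterByExpr with a minimum count of 10, 6 groups in 1 model and the robust quasi-likelihood test, with Benjamini-Hochberg adjustment over 13938 genes and a threshold of 0.05. The study's methods describe generalized linear models with robust dispersions, tried here as an alternative, with DESeq2 1.42.0, other scalings and filters, each line alone, a replicate block and each library left out. The fit was first tested on simulated data, where it called 25% of 2-fold and 69% of 4-fold changes. A gene that is not called can thus still differ by such amounts. An exact permutation test of 3 libraries against 3 cannot give a two-sided p below 0.1.

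The 10 genes and all lists were chosen with earlier results of these data known. Named genes are every member, *Trp53*, *Cryaa*, *Cryab*, at most the 4 most changed called genes of each list and comparison with WT, listed relatives of a member, and the 5 genes closest to the members in pattern. *Mdm4* and the markers and low genes named beside counts were named after their values were seen. Same-numbered *Cryab* WT and homo libraries correlated at r = 0.277, 0.176 and 0.156 after removal of group means, so the replicate number was taken to pair them by a fixed limit of 0.1, although the labels do not say what it marks. The strand setting of the counting is not given in the sources used here. A further fibre marker is not reported here, and the fibre sums leave it out.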

Additional observations from a re-analysis of the deposited data

Results flagged for a closer look

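The homo effect was tested for a difference between the lines (*Cryaa*-R49C at day 2 minus *Cryab*-R120G at day 14) by an interaction term in edgeR's quasi-likelihood test, with 3 libraries a group, and 7 of the 50 other p53 targets passed the threshold. The log2 difference was 2.18 ± 0.36 (SE) for *Gadd45a* (adjusted p = 0.001), 1.54 ± 0.33 for *Rps27l* (adjusted p = 0.0104) and 2.31 ± 0.44 for *Ddit4* (adjusted p = 0.0041). For *Trp53cor1* it was 5.80 ± 0.85 (adjusted p = 0.000208), and without *Cryab* WT replicate 1 it was 5.14 (adjusted p = 0.00249). For *Gdf15* it was 8.76 ± 1.45 (adjusted p = 0.00407), and without that library 5.51 (adjusted p = 0.000747). That library held 66 *Gdf15* counts and the other day 14 WT libraries 6 and 1. *Trp53cor1* and *Gdf15* passed the filter only through the *Cryaa*-R49C-homo libraries, which favours a difference above 0. For *Plk3* it was 2.91 ± 0.78 (adjusted p = 0.0451), and without that library 1.79 (adjusted p = 0.198). The call of *Plk3* was lost with most of the single libraries left out. For *Sesn1* the difference was -1.47 ± 0.38 (adjusted p = 0.0362), and it was -1.35 with library size alone (adjusted p = 0.17). Its call was also lost with several of the single libraries left out, such as *Cryab* WT replicate 1 (-1.32, adjusted p = 0.0753).

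With *Eda2r* left out, which held at most 3 counts in any WT or homo library of the *Cryab* line, 3 of the core targets were above the WT mean in every *Cryaa*-R49C-homo library and below it in every *Cryab*-R120G-homo library. The choice of the genes favours the first of these conditions, and the second held for 18.3% of all genes tested. The fitted log2 difference between the homo effects was 5.39 for *Cdkn1a*, 3.84 for *Sesn2* and 1.84 for *Trp53inp1*, and these differences were not tested because the genes were chosen on part of them. For *Cdkn1a* and *Trp53inp1* the position below the WT mean rests on *Cryab* WT replicate 1: without that library only *Sesn2* of the 9 genes was below it in every *Cryab*-R120G-homo library (19.2% of all genes were), and the difference for *Cdkn1a* was 3.33.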

How the results depend on the processing

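That none of the 10 genes was called in *Cryaa*-R49C-het, *Cryab*-R120G-homo, *Cryab*-R120G-het or between the *Cryab*-R120G groups held under every alternative run and with each library left out, except that *Cdkn1a* and *Eda2r* were not tested with the *Cryab* line alone, where they did not pass the filter. Their median log2 fold change in *Cryaa*-R49C-homo ran from 2.37 to 2.81 over the libraries left out, and from 2.39 to 2.72 against het. The 14 ATF4 and CHOP calls became 13 to 16, the 11 other p53 targets 7 to 16 and the 0 p21/DREAM calls up to 4, the call of 1 regulator fell to 0 at the lowest, and the 2 core targets between WT ages rose to 4 at the highest. The number of all genes called ran from 731 (without *Cryaa* WT replicate 1) to 3092 (without homo replicate 1) in *Cryaa*-R49C-homo, 0 to 2 in *Cryaa*-R49C-het, 1 to 13 in *Cryab*-R120G-homo, 0 to 3 in *Cryab*-R120G-het and 1782 to 4224 between WT ages. With every counted gene kept, 17, 302 and 140 genes were called in *Cryaa*-R49C-het, *Cryab*-R120G-homo and *Cryab*-R120G-het, 2 and 3 of the latter groups' genes being other p53 targets. With library size alone, 2138 genes were called in *Cryaa*-R49C-homo (1884 higher and 254 lower, against 679 and 685 with TMM), 0 regulators, 11596 genes between WT ages and 6 of the 10 core targets among them (1 higher and 5 lower). DESeq2 called 2, 20 and 12 genes in *Cryaa*-R49C-het, *Cryab*-R120G-homo and *Cryab*-R120G-het. The likelihood-ratio test with robust dispersions called 2887 genes in *Cryaa*-R49C-homo, with 22 other p53 targets and 2 regulators, 15, 257 and 46 genes in the other groups in the same order, and 5 core targets between WT ages. With each line alone, 0 genes were called in either het group.

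With the replicate block, 18 genes were called in *Cryab*-R120G-homo, 3 in *Cryab*-R120G-het and 1333 between WT ages. The block kept every count of core targets called. In the *Cryaa* line and against het the same-numbered libraries did not all correlate above 0.1.

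Several differences turned in direction, and of the turned values given here *Bax* alone passed the threshold. With library size alone the median of all genes moved too. It went from 0.00 to 0.37 in *Cryab*-R120G-homo and from 0.00 to 0.21 in *Cryab*-R120G-het. In *Cryaa*-R49C-het it went from -0.01 to 0.21, and between WT ages from -0.07 to -1.61. With library size alone *Ccng1* became 0.19 in *Cryab*-R120G-homo and 0.044 in het, *Bax*, *Phlda3* and *Bbc3* -1.06, -0.61 and -0.77 between WT ages, and *Bax* and *Zmat3* turned in both *Cryab*-R120G groups (0.035 to 0.11) and *Phlda3* in homo (0.31). *Mdm2* and *Ccng1* turned in *Cryaa*-R49C-het (0.070 and 0.12), and *Mdm2*, *Bax* and *Zmat3* between *Cryab*-R120G-homo and het (0.0027 to 0.081). With robust dispersions *Trp53* became -0.27, and *Cdkn1a* 0.11 in *Cryab*-R120G-homo and 0.17 in het. With the block *Trp53* became -0.031, and *Cdkn1a* 0.39 between WT ages. Among libraries left out, *Trp53* ran from -0.49 to 0.27, *Cdkn1a* from -2.03 to 0.81 in *Cryab*-R120G-homo, from -1.98 to 0.65 in het and from -2.55 to 0.071 between WT ages, *Ccng1* from -0.35 to 0.0036 in *Cryab*-R120G-homo, and *Mdm2* from -0.081 to 0.19 in homo and -0.040 to 0.28 in het. The cause of these turns was not tested. At 3 libraries a group, *Eda2r*, *Bbc3* and *Cdkn1a* in the *Cryab* line are limited by single-digit counts in most libraries.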
